A study of Zea mays with 68 samples.

Results

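In maize inbred B73, 200 genes had the highest transcript levels in the sampled vegetative shoot apex relative to the ear spikelets and stem internodes measured beside it. They were chosen from 109715 gene rows of an RNA-seq table by the size of that difference. For each tissue, the mean of log2(FPKM + 1) was taken, where FPKM counts fragments per kilobase of transcript, scaled to the mapped fragments of the library. Genes were ranked if their internode means lay within 1.5-fold of each other on this scale, which left 105741 rows, after 6 rows without a value were dropped. The score of a gene was its meristem mean minus the highest of the means of the other 3 tissues, and the 200 highest scores were kept. Scores ran from 9.05 down to 2.33 with a median of 2.93. Since these values chose the genes, the difference between meristem and other tissues is described below and not tested for them.

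All samples had the genotype B73, the line of the maize reference genome, and no treatment is labelled. The tissues used were Vegetative Meristem & Surrounding Tissue (2 libraries), mature female spikelets (3 libraries), Internode 6-7 (3 libraries) and Internode 7-8 (3 libraries), which are 4 of 23 labelled tissues. The meristem sample is a dissected apex, so it holds the meristem together with the tissue around it, and its libraries are called meristem 1 and 2. The spikelets are the flower-bearing units of the ear. Nothing in the labels says that libraries of a tissue came from separate plants, and plant age is not labelled, so the p-values below speak of the spread among libraries alone, which may be technical. Read depth is not given by FPKM, and an exact 0 may be a failed estimate. In these bulk samples, fewer cells of a type and less RNA per cell cannot be told apart.

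The shoot apical meristem is the dome of dividing cells at the tip of the plant that produces leaves, stem and later the inflorescence. KNOTTED1-type homeobox (KNOX) genes keep its cells undifferentiated, and WUSCHEL-type genes act in its centre in Arabidopsis. On its flanks, leaf primordia arise where KNOX genes are switched off, boundary genes of the NAC family separate organs, YABBY, KANADI and HD-ZIP III genes set the lower and upper leaf faces, and growth-regulating factors (GRFs) promote cell division in the young leaf. The outermost cell layer expresses HD-ZIP IV genes and makes the cuticle.

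Markers of these cell types were read in all 4 tissues as a check of the labels, and the KNOX genes did not set the meristem sample apart. The 17 meristem and primordium markers summed to 503 to 524 FPKM in the meristem libraries, 205 to 312 in spikelets, 510 to 584 in Internode 6-7 and 589 to 775 in Internode 7-8. Kn1 itself averaged 138 FPKM in the meristem, below the internode averages of 158 and 250 FPKM and above 48.1 FPKM in spikelets. Wus1 was at 0 in both meristem libraries and wus2 at 0 and 0.151 FPKM. The YABBY gene yab14 averaged 40.6 FPKM in the meristem, 10.6 in spikelets and at most 0.285 in an internode tissue. The 7 floral organ genes of the MADS-box family summed to at most 2.50 FPKM in the meristem libraries, against at least 1215 FPKM in spikelets. The 8 leaf photosynthesis genes summed to 119 to 120 FPKM in the meristem and 257 to 301 in spikelets. They summed to 206 to 1379 in the internodes, where Internode 7-8 library 2 was the lowest. The list was not uniform, since lhcb3, lhcb7, rbcs1, psbs1 and the pep1 gene GRMZM2G083841 averaged lowest in the meristem but others did not. GRMZM2G083841 was at 0 in both meristem libraries and averaged at most 0.0549 FPKM in another tissue. The other pep1 gene, GRMZM5G899080, averaged 42.9 FPKM in the meristem, 44.2 in spikelets and 3.11 and 3.66 in the internode tissues. Me3 averaged 4.44 FPKM in the meristem and at most 1.00 in another tissue. The 7 secondary wall genes summed to 110 to 114 FPKM in the meristem, 122 to 166 in spikelets and 164 to 235 in the internodes. Of 1 pollen gene, expb1, the levels were 1.93 to 2.56 FPKM in the meristem and 4.56 to 25.7 FPKM in spikelets. None of these markers was among the 200 genes, and their part in the levels below was not tested.

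The 200 genes fell into groups by how the meristem libraries behaved. For 147 genes, both meristem libraries lay above all 9 libraries of the other tissues. The score favours such genes, so this count describes the choice, and the same share over all genes was not counted. Taken singly, meristem 1 lay above those 9 libraries for 25.8% of the 45010 genes above 0 in a library, and meristem 2 for 26.6%. For 7 genes, both meristem libraries held some signal but at least 1 of them lay within the range of the other tissues. The remaining 46 genes were above 0 in exactly 1 library of the 11, a meristem library. The plot of scores by rank shows the genes of these groups in order.

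**Figure D1:**
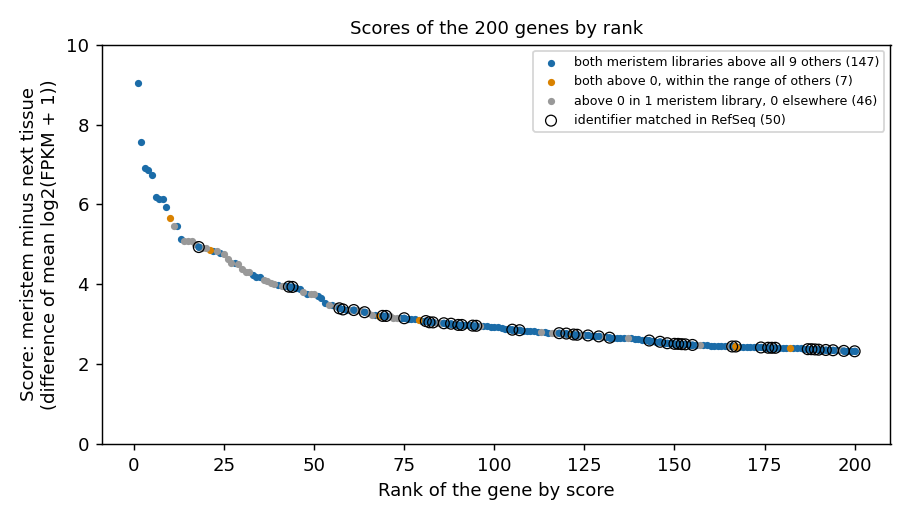
Score of each of the 200 genes (meristem mean minus the highest other tissue mean, in log2(FPKM + 1)) by rank, coloured by how the meristem libraries behaved, with rings around genes matched in RefSeq. Scores drop from 9.05 to 2.33, and the highest rank with a ring is 18.

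The 147 genes with both meristem libraries above the rest had mean levels of 4.61 to 2765 FPKM in the meristem, with a median of 18.4 FPKM. For 131 of them, the meristem libraries differed by less than 2-fold, and the median ratio between the libraries was 1.25. In 14 of them all 9 other libraries were at 0. The other 133 had a meristem mean 2.96 to 202 times that of the next highest tissue, with a median of 9.72 times. That next tissue was spikelets for 31 genes, Internode 6-7 for 45 and Internode 7-8 for 57.

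The 46 genes seen in 1 library came equally from both meristem libraries, 23 each, and are listed at 0 in the other meristem library. Their levels were 24.9 to 1964 FPKM with a median of 153 FPKM. FPKM is scaled by transcript length, which is not given here, so how many reads these levels rest on is unknown. These genes held 23 of the ranks 1 to 50 but only 3 of the ranks 151 to 200. None matched a gene in RefSeq. Gene rows of this kind occurred in every tissue. At 24.9 FPKM or more, 129 rows were above 0 in exactly 1 library, namely 23 in each meristem library, 5 in each spikelet library, 13 to 16 in the Internode 6-7 libraries and 7 to 10 in the Internode 7-8 libraries. Among the 46 genes were 2 sets with equal values in every library. GRMZM2G504683, GRMZM2G529987 and GRMZM2G530609 each had 1162 FPKM in meristem 2, and GRMZM2G539430 and GRMZM2G557844 each had 899 FPKM there. Reads shared between near-identical copies cannot be told apart here.

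The 7 genes with overlapping libraries were uneven across libraries. GRMZM2G369559 had 112 FPKM in meristem 1 and 0.130 FPKM in meristem 2, the largest ratio between these libraries among those of the 200 genes with signal in both. GRMZM2G509994 had 762 and 429 FPKM in the meristem, against 0, 533 and 0 FPKM in spikelets, 0, 583 and 491 FPKM in Internode 6-7 and 282, 336 and 0 FPKM in Internode 7-8. Its score was 3.12, although libraries of the other tissues lay above a meristem library. GRMZM2G121759 had 18.6 FPKM in both meristem libraries, the closest agreement of the 200 genes, but reached 50.0 FPKM in spikelet library 2.

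**Figure D2:**
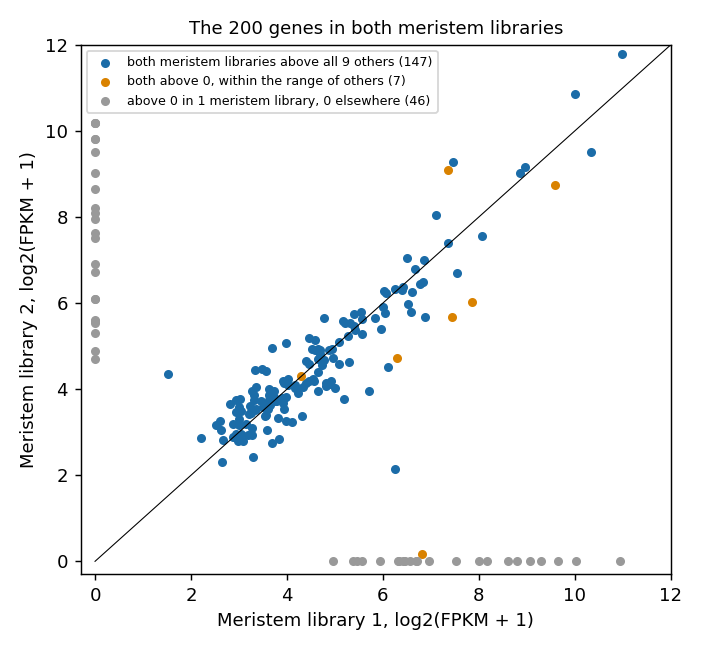
Level of each of the 200 genes in meristem library 1 (horizontal) and meristem library 2 (vertical), as log2(FPKM + 1), with the line of equality. The 46 genes of 1 library lie on the axes and most of the 147 genes lie close to the line, with a median ratio of 1.25.

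Of the genes above 0 in both libraries but at different levels, GRMZM2G544521 stood out after GRMZM2G369559. It had 75.1 FPKM in meristem 1 and 3.39 FPKM in meristem 2, a ratio of 22.2, with 0 in all 9 other libraries. At the other end, GRMZM2G127720 had 6.38 FPKM in meristem 1 and 6.36 FPKM in meristem 2, and 0.528 FPKM in 1 internode library was its only other signal.

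The 10 highest scores belonged to genes with no RefSeq match, so their products are not named. GRMZM2G589081 led with 495 FPKM in meristem 1 and 566 FPKM in meristem 2 and was at 0 in all 9 other libraries, giving the score of 9.05. The same pattern of signal in both meristem libraries and 0 elsewhere held for GRMZM5G873249 (137 and 263 FPKM), GRMZM2G551828 (115 and 126 FPKM), GRMZM2G518484 (100.1 and 110.0 FPKM), GRMZM2G535506 (95.3 and 54.2 FPKM) and GRMZM2G559379 (65.9 and 74.0 FPKM). The other 4 genes were also seen in internodes, each in 1 library of each internode tissue and in no spikelet library. GRMZM2G522682 had 1292 and 721 FPKM in the meristem, against 496 FPKM in Internode 6-7 library 2 and 557 FPKM in Internode 7-8 library 3. GRMZM2G510568 had 463 and 516 FPKM in the meristem, against 293 FPKM in Internode 6-7 library 4 and 337 FPKM in Internode 7-8 library 2. GRMZM2G564674 had 176 and 621 FPKM in the meristem and at most 157 FPKM elsewhere. GRMZM2G535366 had 162 and 544 FPKM in the meristem, and 202 FPKM in Internode 6-7 library 4 lay between them.

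Gene names came from RefSeq, which matched 50 of the 200 identifiers, 47 as protein-coding genes and 3 as transcribed pseudogenes. By comparison, RefSeq matched 53.5% of the 29827 genes that reached 1 FPKM in 2 or more libraries, and 40.0% of the 45010 rows above 0 in any library. Of the 200 genes, 153 reached this level, and all 50 matched genes were among them. The matched gene with the highest score, GRMZM2G152591 at rank 18, has no name in RefSeq. It had 83.1 and 77.6 FPKM in the meristem, against 1.09, 3.09 and 1.20 FPKM in spikelets and 0 to 0.891 FPKM in the internodes. A further 18 of the matched genes carry a name, all with both meristem libraries above the other 9. They are described by what they are known to do.

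Among the genes of organ growth were both GRFs and an ARGOS gene. GRF12 (GRMZM2G119359, rank 83), a growth-regulating factor, had 162 and 168 FPKM in the meristem, against 5.03, 3.10 and 4.61 FPKM in spikelets, 20.3, 16.4 and 20.6 FPKM in Internode 6-7 and 15.0, 23.2 and 8.70 FPKM in Internode 7-8. It was the most abundant named gene in the meristem, at 8.62 times its mean in the next tissue. GRF7 (GRMZM5G850129, rank 188), which RefSeq also lists as atGRF5, averaged 9.72 ± 1.95 FPKM in the meristem (SD, n = 2), against 0.0876 ± 0.0809 FPKM in spikelets (n = 3), 1.05 ± 0.183 FPKM in Internode 6-7 (n = 3) and 0.949 ± 0.242 FPKM in Internode 7-8 (n = 3). ZAR1/ZAR2 (GRMZM2G446201, rank 43), a maize ARGOS gene, of a family that promotes organ size in Arabidopsis, had the highest score of the named genes. Its levels were 31.2 and 15.3 FPKM in the meristem and 0.0381 to 0.665 FPKM in the other 9 libraries.

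Genes of leaf initiation, organ boundaries and leaf polarity were also among the named genes. Nam1 (GRMZM2G393433, rank 91), a NAC gene that RefSeq also lists as CUC2 after the boundary gene of Arabidopsis, had 10.0 and 12.1 FPKM in the meristem, against 0.154, 0 and 0 FPKM in spikelets, 0.429, 0.126 and 0.508 FPKM in Internode 6-7 and 0.480, 0.586 and 0.487 FPKM in Internode 7-8. TE1 (terminal ear1, GRMZM2G085113, rank 166), an RNA-binding protein of the MEI2-like family that regulates the timing and position of leaf initiation in maize, had 4.73 and 7.93 FPKM in the meristem. Its levels were 0, 0 and 0.0843 FPKM in spikelets, 0.118, 0.0301 and 0.0973 FPKM in Internode 6-7 and 0.394, 0.146 and 0.417 FPKM in Internode 7-8. Kan1 (GRMZM2G056400, rank 197), a KANADI gene of the family that sets the lower leaf face in Arabidopsis, had 7.81 and 8.15 FPKM in the meristem, against 1.16, 0.619 and 0.608 FPKM in spikelets, 0.193, 0.391 and 0.200 FPKM in Internode 6-7 and 0.161, 0.296 and 0.128 FPKM in Internode 7-8. All 3 genes were low in the other tissues, and kan1 lay close to the last rank kept.

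Of epidermal genes, OCL14 (HDZIV14_OCL14, GRMZM2G145690, rank 146), an HD-ZIP IV gene of the outer cell layer family, had 21.1 and 22.8 FPKM in the meristem, against 2.70, 2.57 and 3.43 FPKM in spikelets, 0.762, 0.963 and 0.927 FPKM in Internode 6-7 and 0.862, 0.948 and 0.946 FPKM in Internode 7-8. CER1 (GRMZM2G099097, rank 58), named after the Arabidopsis gene that makes the alkanes of cuticular wax, had 41.1 and 52.8 FPKM in the meristem, against 2.29, 3.11 and 6.18 FPKM in spikelets, 1.42, 1.10 and 0.998 FPKM in Internode 6-7 and 1.67, 1.65 and 1.73 FPKM in Internode 7-8. For both, spikelets were the next highest tissue. HB2 (GRMZM2G161435, rank 155) is set beside OCL14 as a homeobox gene by its name alone, which does not make it epidermal. HB2 averaged 19.1 ± 2.62 FPKM in the meristem (SD, n = 2), against 2.90 ± 1.79 FPKM in spikelets and 1.07 ± 0.360 and 1.40 ± 0.394 FPKM in Internode 6-7 and Internode 7-8 (n = 3 each).

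SCR (scarecrow1, GRMZM2G131516, rank 118) is a GRAS transcription factor known for radial patterning of the root and for the endodermis. It had 89.3 and 131 FPKM in the meristem, against 10.3, 10.5 and 17.8 FPKM in spikelets, 12.7, 11.6 and 11.0 FPKM in Internode 6-7 and 15.1, 12.3 and 17.7 FPKM in Internode 7-8. SCR was thus present throughout, at 7.32 times the next tissue in the meristem. Of the bHLH factors, bHLH173 (GRMZM5G882527, rank 75) averaged 37.1 ± 0.547 FPKM in the meristem and bHLH23 (GRMZM2G178182, rank 143) 49.9 ± 6.21 FPKM (SD, n = 2). Their highest averages elsewhere were 3.41 ± 1.34 FPKM in Internode 6-7 and 7.58 ± 2.23 FPKM in Internode 7-8 (SD, n = 3). The SBP-box factor sbp21 (GRMZM2G148467, rank 105) had 11.9 and 30.2 FPKM in the meristem and 0.158 to 3.14 FPKM in the other 9 libraries. Tin1 (GRMZM2G059088, rank 90) had 6.98 and 7.99 FPKM in the meristem, was at 0 in all spikelet libraries and reached at most 0.110 FPKM in an internode library.

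The other 4 named genes encode enzymes and a membrane protein. GH3 (GRMZM2G378106, rank 150) belongs to the enzymes that join auxin and related hormones to amino acids, and averaged 6.84 ± 2.45 FPKM in the meristem (SD, n = 2) and 0.349 ± 0.193 FPKM in spikelets, the next tissue (SD, n = 3). The glutathione S-transferase gene GST25 (GRMZM2G161905, rank 70) averaged 25.9 ± 1.69 FPKM in the meristem and gst31 (GRMZM2G475059, rank 81) 8.78 ± 3.84 FPKM (SD, n = 2). Glutathione S-transferases conjugate glutathione to toxic compounds. GST25 varied in the other tissues, where it reached 5.27 FPKM in spikelet library 1 and 4.24 FPKM in Internode 7-8 library 2, while gst31 stayed at or under 0.364 FPKM. Mlo3 (GRMZM2G031331, rank 69), of the membrane protein family named after the barley gene for mildew susceptibility, had 14.1 and 11.8 FPKM in the meristem and at most 0.645 FPKM elsewhere.

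**Figure D3:**
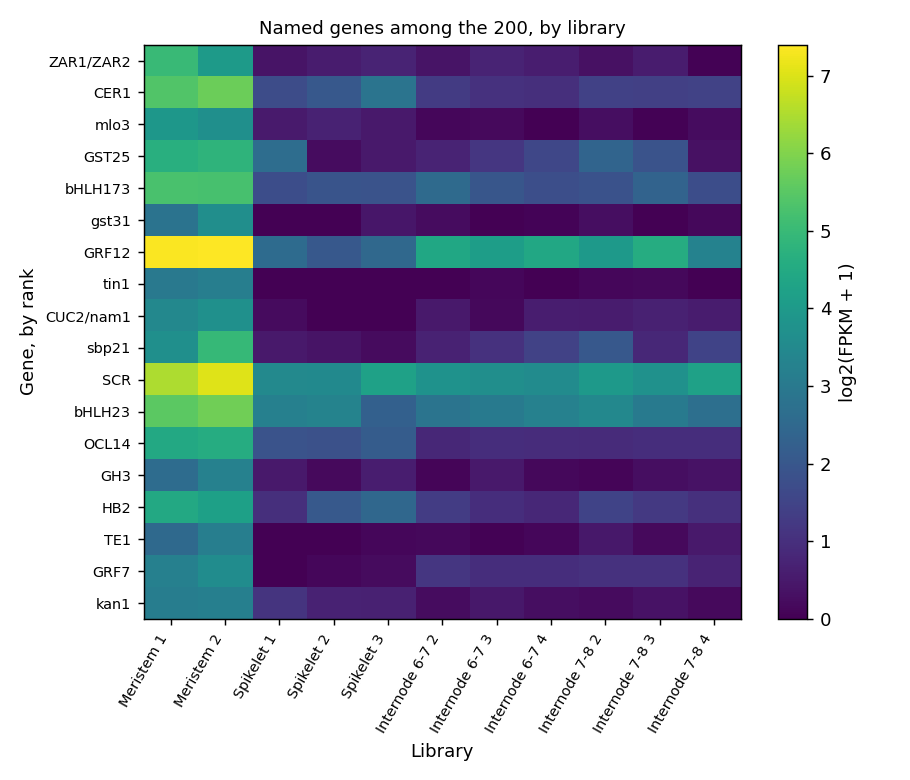
Levels of the 18 named genes, in order of rank, in all 11 libraries as log2(FPKM + 1). The meristem columns are the brightest in every row, GRF12 and SCR are the most abundant, and OCL14 is higher in spikelets than in internodes.

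Among the 47 protein-coding genes with a RefSeq match, those with no other protein-coding gene between them formed 2 pairs. In the pair GRMZM2G325693 and GRMZM2G325683, both genes were higher in meristem 1, with 27.0 FPKM there and 15.8 FPKM in meristem 2 for GRMZM2G325693, and 35.4 and 12.7 FPKM for GRMZM2G325683. In the pair GRMZM2G044670 and GRMZM2G126646, the meristem libraries were close, at 14.3 and 12.9 FPKM for GRMZM2G044670 and 23.9 and 25.0 FPKM for GRMZM2G126646. RefSeq gives none of these genes a name, and the sources used here do not say whether reads of overlapping neighbours were told apart.

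At the lower end, the scores of genes kept and left out were almost the same. Rank 198, GRMZM2G041369, had 8.85 and 4.38 FPKM in the meristem and at most 1.84 FPKM elsewhere, for a score of 2.33. Rank 199, GRMZM5G855007, also scored 2.33, with 35.0 and 47.0 FPKM in the meristem and 0.402 to 10.3 FPKM elsewhere. Rank 200, GRMZM2G349665, scored 2.33 with 15.2 and 16.1 FPKM in the meristem. Just outside, GRMZM2G071339 scored 2.32 with 16.2 and 19.6 FPKM in the meristem. OCL6 (HDZIV6_OCL6, GRMZM2G001289) at rank 202 is an HD-ZIP IV gene like OCL14, with at least 21.8 FPKM in both meristem libraries, against 2.41, 3.13 and 6.32 FPKM in spikelets and 0.873 to 1.80 FPKM in the internodes. GRMZM2G400043 at rank 203 had 31.7 and 31.4 FPKM in the meristem. A rank near 200 therefore separates genes with like values.

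Which genes were kept depended on the treatment of low values and on each meristem library. With a pseudocount of 0.1 or of 5 in place of 1, 114 of the 200 genes remained in each case. Without either meristem library, 142 remained, and without any other library 152 to 195. CER1 and bHLH173 remained under all 17 alternatives, SCR and ZAR1/ZAR2 under 16 and GRF12 under 15, but kan1 under only 7. Of the 147 genes with both meristem libraries above the rest, 24 remained under all 17 and 76 under at least 14. The 46 genes of 1 library have no meristem signal without that library, so none could remain under all 17. Of these 46, 39 remained under at least 14. Ranking by the lowest meristem library minus the highest other library kept 117 of the 200 genes, and 69 of the 200 genes it chose matched RefSeq. It could keep none of those 46, whose lowest meristem library has no signal.

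The pattern was then read in a meristem library that had no part in the choice, a reading added after the values had been seen. The 200 genes were chosen anew from meristem 2 and the other 9 libraries, and meristem 1 was left for reading. In meristem 1, 137 of these genes (68.5%) lay above all 9 libraries of the other tissues and 52 were at 0. Over all 45010 genes above 0 in a library, 25.8% lay above those 9 libraries in meristem 1. With the libraries exchanged, 141 of the 200 genes (70.5%) lay above the rest in meristem 2 and 51 were at 0, against a background of 26.6%. Among the chosen genes matched in RefSeq, 45 of 49 lay above the rest in meristem 1 and 46 of 48 in meristem 2. Of all 18001 matched genes above 0 in a library, 25.0% and 25.9% did. The other 9 libraries served both for the choice and for the reading, so the share above them is not independent of their low levels. The backgrounds hold genes of any level in those libraries, so the difference in shares does not test the pattern.

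Spikelets were then set against the internodes. The rule did not use the difference between them, but it used the levels of both, which it held below the meristem, and it held the internode tissues close to each other. The calls are therefore given gene by gene, and the share of genes called is given beside that of all genes as a description only. Of the 153 genes tested, 5 were called higher and 16 lower in spikelets than in the mean of both internode tissues (limma on log2(FPKM + 1), adjusted p under 0.05 over all 29827 genes and a difference of at least 1). Of all genes, 12.7% were called higher and 16.8% lower. Of the 153 genes, 62 averaged under 1 FPKM in spikelets and in both internode tissues, as 4.98% of all genes tested did, and reached 1 FPKM in both meristem libraries, which alone passes the filter on low values. At those levels the difference cannot reach 1, so these genes could not be called. Among the other 91 genes, 5.49% were called higher and 17.6% lower, against 13.3% and 17.7% of all genes with a mean of at least 1 FPKM in one of these tissues. The median difference was -0.22 for the 153 genes and -0.26 for all genes. Scaling of the libraries by median of ratios moved the medians to -0.14 for these genes and -0.05 for all genes, which reversed their order, and changed the split to 7 higher and 10 lower for these genes, and from 3780 higher and 5004 lower to 4910 and 3249 for all genes. The counts also rested on few libraries. Only 2 genes were called higher without spikelet library 3 and 3 without Internode 6-7 library 3 or Internode 7-8 library 2, and 6 were called lower without spikelet library 1.

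Of the genes higher in spikelets, GRMZM2G168404 had the largest difference. It had 64.0 and 76.6 FPKM in the meristem, 5.17, 8.41 and 8.94 FPKM in spikelets and 0.162 to 1.49 FPKM in the internodes. Spikelets did not overlap with the internodes, and the log2 difference was 2.37 ± 0.22 (SE; adjusted p = 1.24e-05, limma). OCL14, given above, also had every spikelet library above every internode library, with a log2 difference of 1.03 ± 0.15 (SE; adjusted p = 0.000205, limma). The difference of OCL14 was under 1 with a pseudocount of 5 and without spikelet library 3, at 0.42 and 0.94. GRMZM2G126646 had 2.62, 2.39 and 6.27 FPKM in spikelets and 0.749 to 1.17 FPKM in the internodes, a log2 difference of 1.16 ± 0.24 (SE; adjusted p = 0.00191, limma) that lost its call with a pseudocount of 5 and without spikelet library 3, at 0.52 and 0.81. GRMZM2G323470 and GRMZM2G065203 differed by 1.33 ± 0.49 and 1.02 ± 0.25 on the log2 scale (SE; adjusted p = 0.0390 and 0.00592, limma), but their spikelet and internode libraries overlapped, and the calls were lost under 13 and 6 of 18 alternatives. Of the 16 named genes that were not called, 3 had every spikelet library above every internode library. CER1 differed by 0.93 ± 0.23 (SE; adjusted p = 0.00586, limma), kan1 by 0.54 ± 0.16 (SE; adjusted p = 0.0126, limma) and mlo3 by 0.43 ± 0.14 (SE; adjusted p = 0.0248, limma), all short of the size of 1.

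Of the genes lower in spikelets, GRMZM2G039443 had 268 and 186 FPKM in the meristem, 0.473, 0.205 and 1.38 FPKM in spikelets, and averages of 35.3 FPKM in Internode 6-7 and 24.3 FPKM in Internode 7-8 with a highest library of 56.7 FPKM. Spikelets did not overlap with the internodes, and the log2 difference was -4.11 ± 0.38 (SE; adjusted p = 1.37e-05, limma). GRMZM5G856366 was at 0 in all spikelet libraries and at 2.45 to 14.8 FPKM in the internodes, with a log2 difference of -2.78 ± 0.54 (SE; adjusted p = 0.00142, limma). GRMZM5G818194 was also at 0 in spikelets but in 1 internode library too, with 4.43 to 21.2 FPKM in the other 5 (log2 difference -2.44 ± 0.70, SE; adjusted p = 0.0123, limma). GRMZM2G575139 was at 0 in spikelets and in 1 library of each internode tissue and at 59.9 to 81.6 FPKM in the other 4 (log2 difference -4.09 ± 1.54, SE; adjusted p = 0.0416, limma). Its call was lost under 12 of 18 alternatives, among them those without any of the spikelet libraries, with adjusted p of 0.0898 to 0.1003. GRMZM5G845191 had 0, 0 and 3.21 FPKM in spikelets and 2.34 to 10.1 FPKM in the internodes (log2 difference -1.89 ± 0.53, SE; adjusted p = 0.0114, limma), with overlapping libraries, and lost its call under 4 of 18 alternatives.

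GRF12 was the named gene lower in spikelets. Every spikelet library lay below every internode library, with a log2 difference of -1.77 ± 0.25 (SE; adjusted p = 0.000212, limma), and its call held under all 18 alternatives run. Of the named genes not called, 2 had every spikelet library below every internode library, GRF7 with a log2 difference of -0.88 ± 0.16 (SE; adjusted p = 0.00102, limma) and sbp21 with -0.90 ± 0.33 (SE; adjusted p = 0.0359, limma). SCR, with a log2 difference of -0.08 ± 0.20 (SE; adjusted p = 0.741, limma), showed no difference larger than the spread between libraries. In all, 3 of the 5 genes called higher and 8 of the 16 called lower had spikelet libraries that did not overlap with those of the internodes. No share over all genes stands beside these counts or those of the uncalled named genes, so they describe single genes only.

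**Figure D4:**
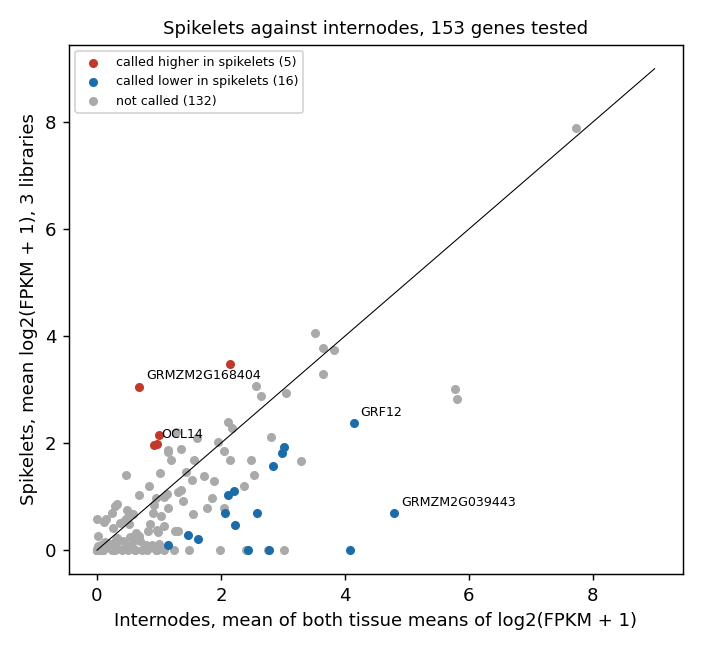
Mean level in spikelets (vertical) against the mean of both internode tissues (horizontal) for the 153 genes tested, as log2(FPKM + 1), with the line of equality. The 5 genes called higher in spikelets lie above the line and the 16 called lower lie below it, among them GRF12 and GRMZM2G039443.

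The families of the named genes were then followed in the genes that are not among the 200, by lists of names. Of 580 genes in 25 lists, 11 were among the 200, in 8 lists. For the genes outside the 200, the meristem was set against the average of the means of spikelets and both internode tissues. Of all 29674 such genes, 16.0% were called higher and 5.31% lower in the meristem, with a median difference of 0.20. Of the 465 list genes tested, 111 were called higher and 60 lower, with a median of 0.34. After scaling by median of ratios, 87 list genes were called higher and 67 lower, with a median of 0.13. Scaling by median of ratios moved the median of all genes outside the 200 to -0.01 and turned their 4741 higher and 1575 lower calls into 3353 and 2296.

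GRFs promote leaf growth together with their coactivators, which the list includes. Of its 18 genes outside the 200, 13 were called higher in the meristem and none lower, with a median of 1.76, or 11 and none with a median of 1.53 after scaling. By limma at an unadjusted p under 0.05, 16 lay higher and 2 lower. GRF6 (GRMZM2G041223) had 63.2 and 84.3 FPKM in the meristem, against 5.17, 5.11 and 5.35 FPKM in spikelets and 10.7 to 31.0 FPKM in the internodes, a log2 difference of 2.40 ± 0.29 (SE; adjusted p = 0.000188, limma). GRF1 (GRMZM2G034876) differed by 2.39 ± 0.30 (SE; adjusted p = 0.000210, limma). Of the same 18 genes, 11 were called lower and 1 higher in spikelets than in internodes, the direction seen for GRF12. Of all genes tested, 16.8% were called lower and 12.7% higher. The family counts for spikelets against internodes are not given after scaling, which moved the counts of all genes.

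Of the 9 YABBY and KANADI genes outside the 200, 4 were called higher in the meristem and none lower, with a median of 0.97, and 2 and none with a median of 0.71 after scaling. By limma at an unadjusted p under 0.05, 7 lay higher and 0 lower. Yab14 (GRMZM2G005353), a YABBY gene, differed most, by 4.10 ± 0.26 (SE; adjusted p = 4.63e-06, limma), with 43.9 and 37.3 FPKM in the meristem and at most 0.362 FPKM in an internode library. Yab10 (GRMZM2G167824) differed by 1.95 ± 0.20 (SE; adjusted p = 7.52e-05, limma), but was higher in spikelets, at 17.5 to 26.8 FPKM, than in the meristem, at 14.2 and 15.3 FPKM. All 9 genes were called higher in spikelets than in internodes, as 12.7% of all genes tested were, and this count too is not given after scaling.

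Of the 28 HD-ZIP genes outside the 200, 8 were called higher and 1 lower in the meristem (median 0.38, and 0.16 with 8 and 2 calls after scaling). OCL6 was the highest, by 3.02 ± 0.26 (SE; adjusted p = 2.76e-05, limma). HB128 (GRMZM2G041462) was the 1 called lower, by -2.97 ± 0.27 (SE; adjusted p = 3.81e-05, limma), with 0.888 and 0.165 FPKM in the meristem, against 37.6 to 64.7 FPKM in spikelets. Members of this family thus changed in both directions.

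Of the 35 bHLH genes outside the 200, 14 were called higher and 3 lower in the meristem, as after scaling, with a median of 0.63 and 0.38 after scaling. BHLH114 (GRMZM2G095899) had 47.0 and 53.1 FPKM in the meristem, against 0 to 0.277 FPKM in spikelets and 9.61 to 21.6 FPKM in the internodes (log2 difference 3.02 ± 0.17, SE; adjusted p = 2.35e-06, limma). BHLH168 (GRMZM2G030744) differed by 2.62 ± 0.21 (SE; adjusted p = 1.84e-05, limma). Of the 22 SBP-box genes, 5 were called higher and 2 lower, with sbp29 (GRMZM2G067624) at 2.18 ± 0.28 and ub2 (GRMZM2G160917), an inflorescence branching gene, at 1.86 ± 0.29 on the log2 scale (SE; adjusted p = 0.000222 and 0.000698, limma). After scaling, 3 and 2 were called.

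The families of nam1 and SCR gave few calls. Of 20 NAC genes outside the 200, 1 was called higher and 2 lower, with a median of -0.02. NAC1 (GRMZM2G014653) differed by 1.22 ± 0.23 (SE; adjusted p = 0.00211, limma) with 17.8 to 29.9 FPKM in spikelets, above the 10.1 and 6.23 FPKM of the meristem, and lost its call after scaling, at 0.97, and without meristem 1 (adjusted p = 0.0522). NAC95 (GRMZM5G813651) was lower in the meristem by -1.41 ± 0.30 (SE; adjusted p = 0.00360, limma), a call lost without meristem 2 (adjusted p = 0.0582). Of 9 GRAS genes outside the 200, 1 was called higher and 1 lower. GRAS19 (GRMZM2G172657) was higher by 1.69 ± 0.23, and d9 (GRMZM2G024973), a DELLA repressor of gibberellin signalling, lower by -1.20 ± 0.23 (SE; adjusted p = 0.000298 and 0.00209, limma). The call of d9 was lost without meristem 1, at a log2 difference of -0.97.

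Of the 7 cuticle genes outside the 200, 2 were called higher and none lower in the meristem, also after scaling, while at an unadjusted p under 0.05 by limma 4 lay higher and 0 lower. Gl15 (GRMZM2G160730), an AP2 transcription factor that promotes juvenile leaf epidermis in maize, had 6.62 and 4.82 FPKM in the meristem and at most 0.643 FPKM elsewhere (log2 difference 2.40 ± 0.18, SE; adjusted p = 1.37e-05, limma). LTP3 (GRMZM2G126397), named as a lipid transfer protein gene, had 1389 and 1261 FPKM in the meristem, below its 3748 to 4246 FPKM in spikelets and above 102 to 223 FPKM in the internodes (log2 difference 1.60 ± 0.17, SE; adjusted p = 7.50e-05, limma).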

How the data were processed

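The authors deposited FPKM values per gene in 1 table of 68 value columns. Cufflinks 2.1.1, Bowtie2 2.1.0 and TopHat2 2.0.8b were used, per the submitters' processing notes, while build, annotation, settings and counting by strand are not given here. Libraries came from polyA-selected RNA with strand kept through dUTP, per the labels' protocols. Columns of the meristem and spikelets were matched to the labels by initials, on which every value of these tissues rests, and the internode columns name their tissue but carry numbers 2 to 4, unlike the sample titles, so they are replicates without a sample of their own. The other 57 columns were not used.

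The 200 genes and all lists were chosen with earlier results of these data known. The test, limma 3.58.1 (R 4.3.3), ran on log2(FPKM + 1) for the 29827 genes that reached 1 FPKM in 2 or more libraries, a scale that understates changes of low genes. The fit had 1 mean per tissue over all 11 libraries and a mean-variance trend, with two-sided tests and Benjamini-Hochberg adjustment over all genes. Calls needed an adjusted p under 0.05 and a log2 difference of 1 or more in either direction. The fit was tested on simulated data. Reads cannot be counted from FPKM, so no count test was run.

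Names came from RefSeq (assembly Zm-B73-REFERENCE-NAM-5.0), used only for names and gene order. Genes named in the text are the 10 highest scores, all with a name (symbols, and synonyms after values had been seen), the 5 highest and 5 lowest calls of spikelets against internodes, ranks 198 to 203, the 2 largest and 2 smallest ratios between meristem libraries, and up to 2 genes outside the 200 for each list that held any of them. The 7 genes with overlapping libraries, the sets with equal values, the neighbours and the uncalled named genes were chosen after their values were seen. Alternatives were other pseudocounts, scaling by median of ratios, other filters, other forms of the score, a replicate block and leaving out each library.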

Additional observations from a re-analysis of the deposited data

How the results depend on the processing

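Of the 200 genes, 114 remained with a pseudocount of 0.1, 114 with a pseudocount of 5, 133 without the limit on the internode difference and 117 when the lowest meristem library was set against the highest other library. Leaving out 1 library kept 142 to 195. The 5 genes called higher in spikelets than in internodes became 11 with a pseudocount of 0.1 and 1 with a pseudocount of 5, and 2 to 7 without 1 library. The 16 called lower became 36 and 5 with these pseudocounts, 10 with scaling by median of ratios, and 6 to 19 without 1 library. The 111 list genes called higher in the meristem became 62 with a pseudocount of 5, 87 with scaling by median of ratios, and 101 to 115 without 1 library. The cause was not tested. None of these 21 calls of spikelets against internodes and 171 calls of list genes changed sign under the alternatives run. Deviations of same-numbered libraries had correlations of -0.157 to 0.202, within the -0.207 to 0.256 of differently numbered ones. Since the internode numbers differ from those of the titles, this cannot tell whether libraries were paired. With a replicate block, 5 genes were called higher and 16 lower in spikelets, of which 3 and 10 were among those called without it, and 116 list genes were called higher and 55 lower in the meristem, of which 100 and 52 were. Motifs and proteins of the 200 genes were not analysed here, since no sequences were used. Precision is limited by 2 meristem libraries and by levels near 0, whose depth is unknown.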

Other observations

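Among families of the shoot apex with no gene in the 200, the Ovate family, whose members restrain organ elongation in Arabidopsis, had 5 of 8 genes called higher in the meristem than in the average of the other tissues and none lower, or 4 and none after scaling by median of ratios. Of all 29674 genes outside the 200, 4741 (16.0%) were called higher and 1575 (5.31%) lower. After scaling, these counts were 3353 and 2296. Cyclin and replication genes had 6 of 25 called higher and none lower, but 3 higher after scaling, and cytokinin genes 6 of 27 and none lower, with 5 higher after scaling. KNOX and WOX homeobox genes had 1 of 13 called in each direction, and their median difference of 0.19 became -0.06 after scaling. MADS-box genes, some of which specify floral organs, had 6 of 37 called higher and 22 lower, or 5 and 23 after scaling. The average includes spikelets, in which 27 of these 37 genes were called higher and 7 lower than in internodes, without scaling. A lower call in the meristem therefore need not mean a level below the internodes. Light-harvesting and photosystem genes had none of 17 higher and 11 lower, also after scaling. By limma at an unadjusted p under 0.05, 0 Ovate genes, 1 cyclin or replication gene and 1 cytokinin gene lay lower, and 0 light-harvesting or photosystem genes higher.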
